A study of Mus musculus with 4 samples.

Results

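The subject here is the posterior end of the mouse Hoxa cluster, the genes Hoxa9, Hoxa10, Hoxa11 and Hoxa13, together with Evx1, the homeobox gene that follows Hoxa13 on chromosome 6. These 5 genes, of 21853 protein-coding genes in the annotation, were taken by name. Every peak in them or within 10 kb of them was then collected, which gave 25 of 10223 peaks (0.245%) in the list made from 500 cells and 16 of 15282 (0.105%) in the list made from 15000 cells. The cells were erythro-myeloid progenitors (EMPs), the transient blood progenitors of the yolk sac, from C57BL/6 embryos at E10.5, and the study asked which genes are held under H3K27me3 in them. CUT&RUN, in which an antibody guides a nuclease to cut out the chromatin around a histone mark, was run with an H3K27me3 antibody and with an isotype IgG at each cell number, so the series has 4 libraries and 1 library per group. All 4 carried the genotype label Ezh2fl/fl; Tie2-Cre+/+ Wild type. The label joins floxed Ezh2 alleles to a Cre whose Tie2 promoter is active in endothelium and its blood progeny, and the study treated the cells as wild type. EMPs were sorted as KIT+ CD41+ CD16/32+ cells. The number of embryos behind a library is not given in the sources used here.

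The cell numbers differed in more than cells. The libraries of 500 EMPs had 17 cycles of amplification, reads of 76 bp and a peak threshold of p 0.01, and those of 15000 EMPs had 16 cycles, reads of 59 bp, another sequencer and a threshold of p 0.05. The study's methods also give the 500-EMP data fewer reads and a far lower alignment rate than the 15000-EMP data. The peak lists hold positions only, without a height, score or read count, so the number of reads behind a single peak is unknown and a missing peak means only that none was listed. With 1 library per group there is no replicate error and no test, and cell number, depth, alignment rate, read length and threshold cannot be told apart in any difference between the lists. Of 12 genes of the sorting gate and of EMPs, 0 had a peak within 3 kb of the start with 500 EMPs and 1 (8.33%) with 15000 EMPs, where 9.99% and 17% of all protein-coding genes had one. The exception was Gata2 with 31.1% of its window in peaks. Of 4 endothelial genes, 0 and 1 had a peak, the latter Kdr with 4.57%. A peak of this mark does not measure expression.

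Hox genes encode homeodomain transcription factors that give cells along the body axis their position. They lie in clusters, and their order on the chromosome follows the order in which they are switched on, with the posterior genes last. Polycomb repressive complex 2, whose catalytic subunit is Ezh2, trimethylates lysine 27 of histone H3 over silent Hox clusters, and the mark spreads over broad domains rather than single promoters. Hoxa9 is a regulator of blood progenitors and a driver of leukaemia when overexpressed. Hoxa10 acts in the uterus, limb and blood, Hoxa11 in the limb, kidney and uterus, and Hoxa13 in the digits and the urogenital tract. Evx1 encodes a homeobox factor of the primitive streak and of spinal interneurons.

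The sequences next to the start sites are shown because the peaks broke at some of them and not at others. Each is the stretch of 250 bases before the start of the main coding transcript, from the RefSeq promoter table (GRCm38.p6, the patch release of mm10), written 5′ to 3′ on the gene's strand, with each CG dinucleotide in capitals.

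Hoxa9, chr6:52227371-52227620, minus strand: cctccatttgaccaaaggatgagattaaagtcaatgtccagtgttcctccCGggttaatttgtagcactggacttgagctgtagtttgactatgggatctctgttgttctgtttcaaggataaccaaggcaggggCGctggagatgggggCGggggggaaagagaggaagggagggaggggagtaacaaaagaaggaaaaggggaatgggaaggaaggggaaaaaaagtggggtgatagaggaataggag
Hoxa10, chr6:52234940-52235189, minus strand: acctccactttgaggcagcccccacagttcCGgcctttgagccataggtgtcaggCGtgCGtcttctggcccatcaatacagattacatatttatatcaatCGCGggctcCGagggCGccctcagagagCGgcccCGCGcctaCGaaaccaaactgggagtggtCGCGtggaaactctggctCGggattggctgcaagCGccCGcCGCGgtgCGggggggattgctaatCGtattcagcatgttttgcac
Hoxa11, chr6:52245811-52246060, minus strand: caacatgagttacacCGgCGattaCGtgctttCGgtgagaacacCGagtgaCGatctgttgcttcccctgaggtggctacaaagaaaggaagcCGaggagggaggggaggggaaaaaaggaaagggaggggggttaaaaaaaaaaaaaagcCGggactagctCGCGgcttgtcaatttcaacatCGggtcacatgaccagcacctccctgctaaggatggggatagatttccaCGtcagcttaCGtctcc
Hoxa13, chr6:52260881-52261130, minus strand: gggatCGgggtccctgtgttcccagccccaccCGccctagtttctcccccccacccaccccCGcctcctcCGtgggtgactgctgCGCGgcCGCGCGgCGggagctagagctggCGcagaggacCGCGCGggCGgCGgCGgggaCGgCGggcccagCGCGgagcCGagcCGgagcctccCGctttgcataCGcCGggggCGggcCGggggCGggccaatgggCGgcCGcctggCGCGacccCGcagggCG
Evx1, chr6:52313248-52313497, plus strand: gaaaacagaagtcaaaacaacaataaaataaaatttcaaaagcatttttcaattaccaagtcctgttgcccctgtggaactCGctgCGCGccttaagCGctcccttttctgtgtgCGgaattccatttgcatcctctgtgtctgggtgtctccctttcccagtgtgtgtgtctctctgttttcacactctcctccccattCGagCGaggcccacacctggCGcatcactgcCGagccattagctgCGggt

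The Hoxa13 stretch held 35 CG dinucleotides and was 80% G and C. The main Hoxa10 start had 20, Hoxa11 13, Evx1 10 and Hoxa9 3, beside a median of 6 over 32851 promoters. In the count of CG dinucleotides, Hoxa13 stood at the 97th percentile of the table and Hoxa9 at the 29th. The letters TATAAA, searched on both strands, occurred in the main Hoxa10 stretch and in none of the other 4, and 12.4% of all promoters of this length held them. Peaks of the 500-EMP list covered 0 of the 250 bases at Hoxa9, 204 at Hoxa10, 160 at Hoxa11, 0 at Hoxa13 and 109 at Evx1. Peaks of the 15000-EMP list covered all 250 bases at Hoxa9, Hoxa10 and Evx1, 105 at Hoxa11 and 0 at Hoxa13. The Hoxa13 promoter was thus in no peak of either list, and the Hoxa9 promoter was fully covered in one list and empty in the other.

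Across the whole stretch from Hoxa9 to Evx1, chr6:52223100-52318378, peaks covered 45% of 95279 bp with 500 EMPs and 71.3% with 15000 EMPs. Of the bases covered with 500 EMPs, 97% were also covered with 15000 EMPs, beside 93% over the whole list and 95.6% from Hoxa2 to Hoxa7. Since 15000-EMP peaks covered 71.3% of the stretch, a high share could be foreseen and does not show agreement particular to these genes. Within the Hox part, Hoxa9 to Hoxa13, the covered share was 59.8% and 93.5% of 37781 bp. The stretch from Hoxa2 to Hoxa7 had 73.5% and 93.3% of 59438 bp. In the 52617 bp between the starts of Hoxa13 and Evx1 it was 31.8% and 53.2%. Peaks ran with short breaks from Hoxa2 to past the start of Hoxa13, apart from the 500-EMP list at Hoxa9, and Evx1 lay in a separate block.

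**Figure D1:**
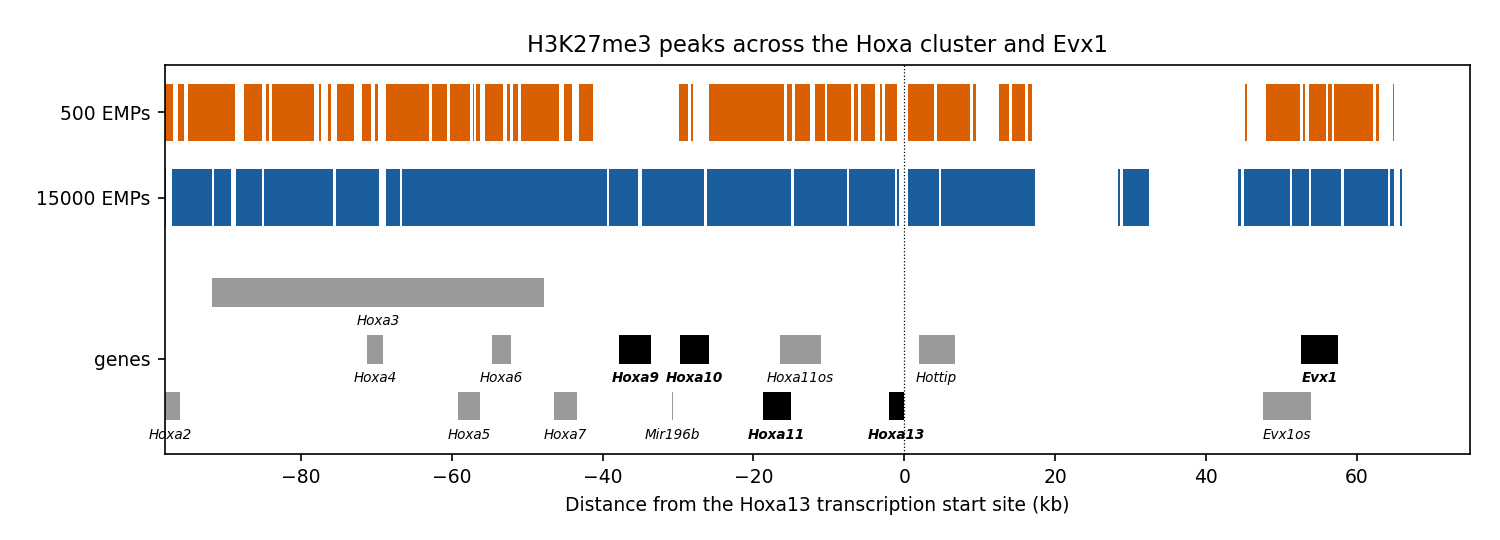
Peaks of the 500-EMP list (orange) and the 15000-EMP list (blue) along the Hoxa cluster from Hoxa2 onward, with main transcripts below (members in black), against the distance in kb from the Hoxa13 start on the plus strand. A stretch of 11404 bp without a 500-EMP peak lies over Hoxa9 where the 15000-EMP list is nearly continuous.

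In the member genes with flanks of 10 kb, 82662 bp in all, 25 peaks covered 59.8% with 500 EMPs and 16 peaks covered 89.1% with 15000 EMPs. Peak widths ran from 138 to 9946 bp with a median of 1356 bp in the smaller library, where the median over the whole list was 363 bp. In the larger library they ran from 247 to 27239 bp with a median of 5018 bp, beside 770 bp over the list. The peaks at these genes were thus wide for their list, and the larger library had fewer and wider ones. Each of the 25 peaks of the smaller library shared 1 bp or more with a peak of the larger one (100%, 95% Wilson interval 86.7 to 100%), and 12 of 16 did so in the other direction (75%, 50.5 to 89.8%). Over the whole lists these shares were 91.2% and 32.2%. With 89.1% of the bases here in 15000-EMP peaks, almost any 500-EMP peak would share 1 bp with one. The 100% therefore does not show agreement particular to these genes. The intervals cover counting error only and take neighbouring peaks of a domain as independent, which they are not. When the shared bases had to make up 50% of each partner, the share of the 25 fell to 20%. This stricter share was not computed over the whole list, so whether 20% is usual there is unknown.

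Around the start of each gene, coverage was measured as the share of a window of 6001 bp, 3 kb on each side of the transcription start site (TSS) of the main coding transcript, that lay in peaks. A peak reached this window at 4 of the 5 genes with 500 EMPs, where 9.99% of all protein-coding genes had one, and at 5 of 5 with 15000 EMPs, where 17% had one. At least 50% of the window was covered at 4 of 5 and 5 of 5 genes, against 0.837% and 7.96% of all genes. The start site itself lay in a peak at 1 of 5 genes with 500 EMPs, Hoxa11, against 1.25% of all genes. With 15000 EMPs it did so at 4 of 5, all but Hoxa13, against 8.69%. Windows of neighbouring genes lie in the same domain, and the window of Hoxa10 shares peaks with those of its neighbours, so the 5 genes are not independent of each other.

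With 500 EMPs the order was Evx1 (86.9%), Hoxa11 (78.2%), Hoxa13 (70.4%), Hoxa10 (57.7%) and Hoxa9 (0%). Only 6 of all protein-coding genes had more of their window covered than Evx1. With 15000 EMPs the order was Hoxa11 (95.2%), Hoxa10 (94.4%), Evx1 (91.7%), Hoxa9 (89.4%) and Hoxa13 (76.7%). Without replicates the spread that would separate neighbours in these orders is unknown. Between the lists Hoxa9 differed most of the 5 and Evx1 least.

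**Figure D2:**
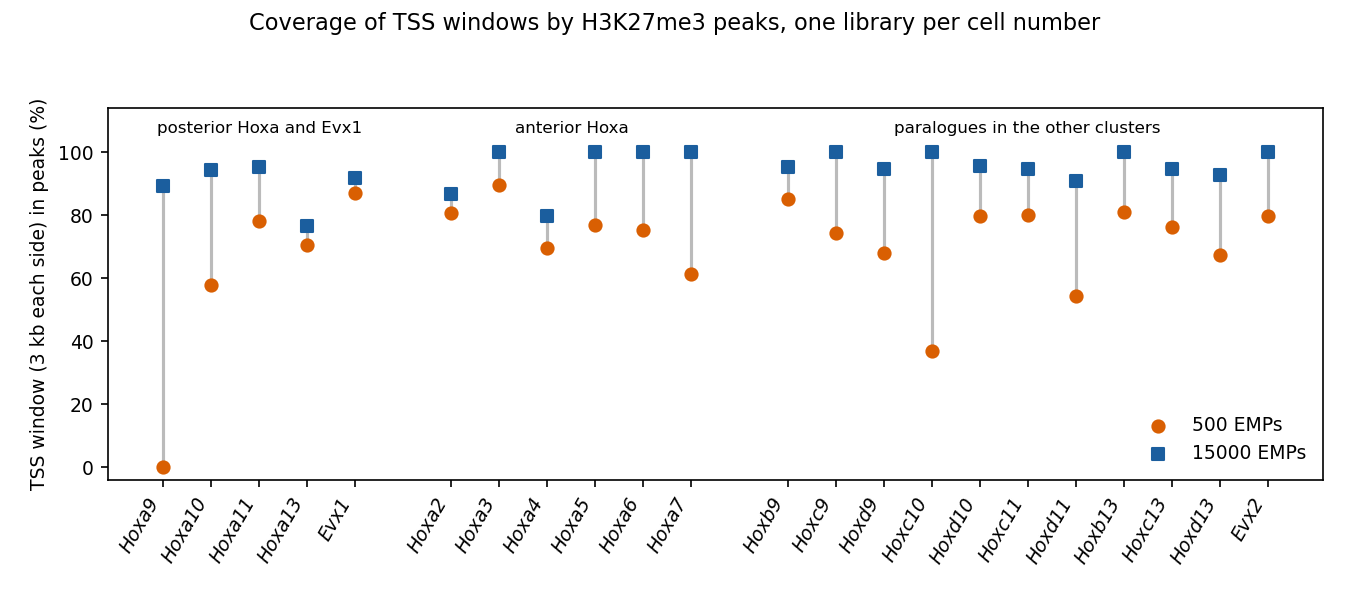
Share of each TSS window in peaks (vertical axis, %) for the 5 genes, the Hoxa genes Hoxa2 to Hoxa7 and the paralogues of the 5 genes in the other clusters, with 500 EMPs (orange circles) and 15000 EMPs (blue squares), 1 library each. Hoxa9 is at 0% with 500 EMPs, where every other gene shown is at 36.9% or more.

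The same measure put the genes beside their relatives. The 6 genes Hoxa2 to Hoxa7 ran from 61.3 to 89.6% (median 76.1%) with 500 EMPs and from 79.9 to 100% (median 100%) with 15000 EMPs. The 11 paralogues of the members, which are the genes of the same Hox groups in the Hoxb, Hoxc and Hoxd clusters and Evx2, the Evx1 relative beside Hoxd13, ran from 36.9 to 85.1% (median 76.3%) and from 90.9 to 100% (median 95.2%). The medians over the 5 genes themselves were 70.4% and 91.7%, and over all protein-coding genes 0% and 0%. Hoxa9 was the lowest gene of all 3 groups with 500 EMPs, while its paralogues Hoxb9, Hoxc9 and Hoxd9 had 85.1%, 74.4% and 67.9%. Hoxa13 was the lowest of all 3 groups with 15000 EMPs, where Hoxb13, Hoxc13 and Hoxd13 had 100%, 94.7% and 92.9%. With 15000 EMPs the start of each of the 11 paralogues lay in a peak, and so did those of 5 of the 6 genes Hoxa2 to Hoxa7. The exception, Hoxa4, had its start 487 and 394 bp from the nearest peak of the smaller and larger library, much as Hoxa13 did (462 and 439 bp).

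Meis and Pbx proteins bind DNA together with HOX factors. Of their 7 genes, 1 (14.3%) had a peak in its TSS window with 500 EMPs and 2 (28.6%) with 15000 EMPs, beside 9.99% and 17% of all genes. These were Meis2, with 5.7% and 37.5%, and Meis3, with 0% and 51.9%. Meis1, the partner of Hoxa9 in blood progenitors, and all 4 Pbx genes had no peak in the window in either list. Outside the Hox and Evx families, the genes whose pair of values was nearest to the median pair of the members were Olig2 (70.4% and 94%), Neurod2, Camk2n1, Pdx1 and Tbx3. This likeness rests on 2 libraries.

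Of the members, Hoxa9 had the largest difference between the lists. No base of its TSS window lay in a 500-EMP peak, and 5367 of 6001 bp (89.4%) lay in 15000-EMP peaks. The gene, chr6:52223100-52231089 on the minus strand, had 21 bp in a peak with 500 EMPs (0.263%) and 7356 bp with 15000 EMPs (92.1%). Its main transcript, which starts at 52227370, had 0 and 3637 of 4271 bp covered. The gap without a 500-EMP peak ran over 11404 bp, chr6:52219665-52231068, from the end of a peak at Hoxa7 to a peak at the far end of the Hoxa9 gene. In the larger library 3 peaks covered 10509 bp of it (92.2%). One of these, chr6:52221784-52225523, overlapped no 500-EMP peak, and the next, chr6:52226158-52234377, had 1379 of 8220 bp (16.8%) in common with 500-EMP peaks.

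The gap was set against the rest of the genome after its values had been seen. The 500-EMP list had 3177 stretches between neighbouring peaks at least as long as the one at Hoxa9, and the 15000-EMP peaks covered a median of 1.04% of such a stretch. Only 3 were covered by 50% or more. The stretch at Hoxa9 was the 1 with the highest coverage, and the next had 74.6%. The length limit was taken from the Hoxa9 stretch itself, which is therefore the shortest of the set. The rank thus cannot tell whether its coverage is unusual for its length. By TSS windows, 412 genes had at least as much of the window covered with 15000 EMPs as Hoxa9. Of these, 1 (0.243%), Hoxa9 itself, had no 500-EMP peak in the window. This count depended on the window. With 2000 bp on each side, 55 of 926 such genes (5.94%) had none, and with 1000 bp 153 of 844 (18.1%). Among all 1740 genes with 50% or more of the 3-kb windows covered with 15000 EMPs, 173 (9.94%) had no 500-EMP peak there.

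**Figure D3:**
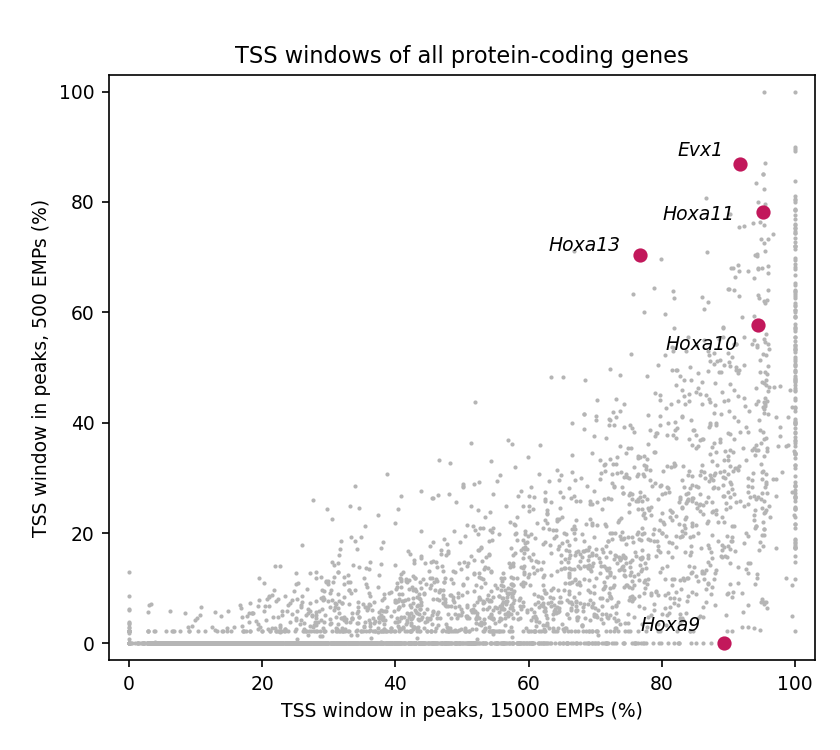
Each grey point is a protein-coding gene, placed by the share of its TSS window in peaks with 15000 EMPs (horizontal, %) and 500 EMPs (vertical, %), and the 5 members are in pink. Hoxa9 lies at 89.4% and 0%, with no other gene at 0% on the vertical axis farther right, and the other 4 members lie at 57.7% or more on that axis.

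The gap held 51.7% G and C, 37.7 CG dinucleotides per kb and no unknown base, and 13.1% of it was masked as repeats. From Hoxa10 to Hoxa13 these values were 50.1%, 32.1 per kb and 13.5%, and from Hoxa2 to Hoxa7 49.6%, 27.7 per kb and 13.3%. The gap was thus somewhat richer in G and C and in CG dinucleotides than both, with a like share of repeats. The part of base composition, read mapping or depth in the gap was not tested.

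The gap also took in a microRNA gene. Mir196b, chr6:52230081-52230165 on the minus strand, lies between the main transcripts of Hoxa9 and Hoxa10, and its products pair with mRNAs of several Hox genes. Its 85 bp were all in a peak with 15000 EMPs, and 0 were with 500 EMPs. Its mature arms from the RefSeq table (GRCm38.p6, chromosome 6, minus strand) follow, with the seed, bases 2 to 8, in capitals, because they are the products of the covered bases.

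mmu-miR-196b-5p, chr6:52230129-52230150: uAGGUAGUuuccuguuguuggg
mmu-miR-196b-3p, chr6:52230094-52230115: uCGACAGCacgacacugccuuc

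Whether Hoxa9 counted as marked with 500 EMPs depended on which start was used. The annotated tables gave Hoxa9 a peak at distance 0 in both libraries, since the start behind their distances lay within 1 bp of the 5′ end of the whole gene, position 52231089. That end belongs to a non-coding transcript and lies 3719 bp before the start of the coding transcript. From the coding start the nearest 500-EMP peak was 3699 bp away. With the gene's 5′ end in place of the coding start, all 5 genes counted as having one within 3 kb in the smaller library, and the Hoxa9 window had 23% and 100% covered.

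Hoxa10 showed the same contrast on one side only. Its main transcript, chr6:52231197-52234939 on the minus strand, had 33.4% in peaks with 500 EMPs and 91% with 15000 EMPs. The 3 kb before the start had 98.5% and 100% covered, and the 3 kb after it 17% and 88.8%. Exon 1 held no 500-EMP base and 65.7% with 15000 EMPs, and the coding sequence 9.94% and 73.1%. The 500-EMP peak upstream, chr6:52234986-52244931, was the widest at these genes in that list (9946 bp), ran on into Hoxa11, and began 47 bp before the main start. A second annotated start of Hoxa10 lies 5915 bp upstream, inside this peak, and a window around it was covered by 100% in both lists.

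Hoxa11, chr6:52242106-52245810 on the minus strand, was covered over most of its length in both lists. Of the gene, 87.5% lay in peaks with 500 EMPs and 100% with 15000 EMPs, where 1 peak of 11202 bp held it whole. The coding sequence had 59.2% and 100%. The 500-EMP list broke across the border of intron 1 and exon 1, at chr6:52244932-52245393, a stretch of 462 bp with 115 CG dinucleotides per kb. Hoxa11os, the long non-coding RNA transcribed from the opposite strand, had 71.8% and 94.7% of its length in peaks.

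At Hoxa13 both lists broke over the start. Hoxa13, chr6:52257694-52260880 on the minus strand, had 58.7% of the gene in peaks with 500 EMPs and 69.9% with 15000 EMPs, and 25% and 42.6% of the coding sequence. The gap over the start was 1433 bp long with 500 EMPs, chr6:52259909-52261341, and 1089 bp with 15000 EMPs, chr6:52260230-52261318. The nearest peak lay 462 and 439 bp from the start. The second gap lies wholly in the first and was 75.6% G and C with 148 CG dinucleotides, 136 per kb. Exon 1 had 0 bases covered in both lists. The first 3 annotated introns of the main transcript are 1 or 2 bp long, so its exon borders are uncertain. Exons 1 to 4 nearly adjoin, and exon 4 had 6.66% covered with 500 EMPs and 36.5% with 15000 EMPs. Upstream, 84.6% and 85.4% of 3 kb lay in peaks, and the long non-coding gene Hottip, which starts there, had 93.3% and 94.5%.

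**Figure D4:**
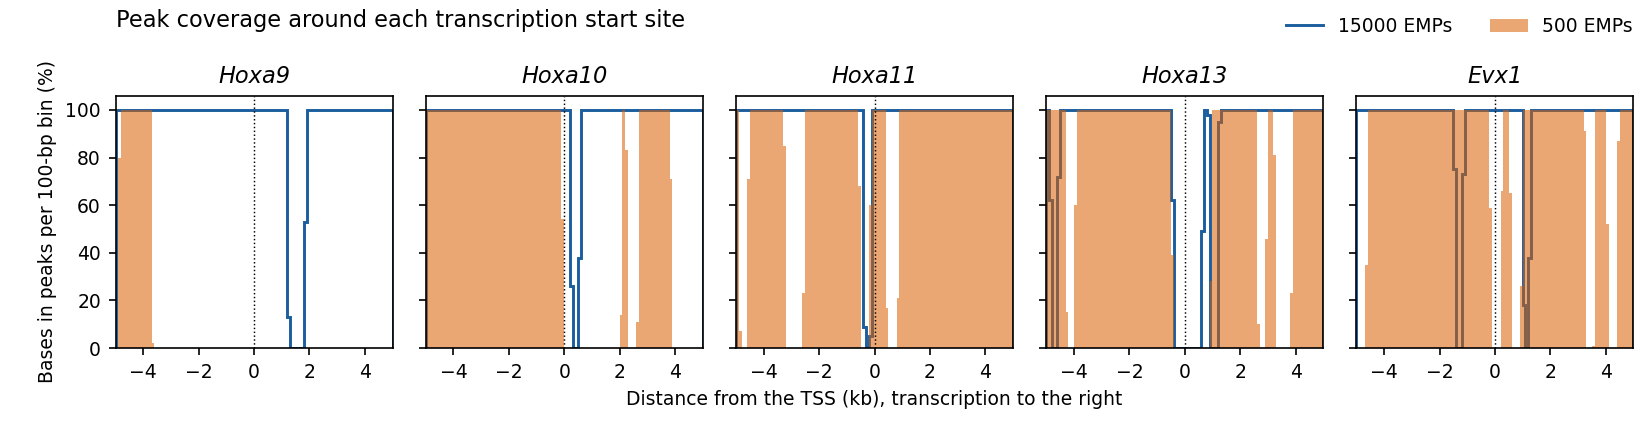
Share of each 100-bp bin in peaks (vertical axis, %) over 5 kb on each side of every main transcript start (horizontal axis, kb, transcription to the right), with 500 EMPs as orange fill and 15000 EMPs as a blue line. Hoxa9 has no 500-EMP fill within 3 kb, and at Hoxa13 both lists are empty at the start.

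Starts outside the peaks were also found at other covered windows. Of the 183 genes with 50% or more of the window covered with 500 EMPs, 108 (59%) had the start outside a peak of that list, among them Hoxa10, Hoxa13 and Evx1. Of the 1740 such genes with 15000 EMPs, 376 (21.6%) did, Hoxa13 among them. The 250 bases before those 376 starts held a median of 24 CG dinucleotides, and before the 1364 starts inside a peak 13. At least the 35 of Hoxa13 were found at 82 of the 376 and at 34 of the 1364. These are descriptions across genes, which are not replicates, and the part of base composition in the peak calls was not tested.

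Within the stretch from Hoxa9 to Hoxa13, base composition differed by which list covered the bases. The 22058 bp covered in both lists held 21.9 CG dinucleotides per kb and 47.7% G and C. The 13268 bp covered with 15000 EMPs alone held 40.5 per kb and 51.6%, and the 529 bp covered with 500 EMPs alone 51 per kb and 60.5%. Much of the 13268 bp lay in the Hoxa9 gene, with 7356 bp in 15000-EMP peaks and 21 bp in 500-EMP peaks. Single places thus weigh heavily in these values. The 1926 bp covered in neither list held 108 per kb and 69.6%. These uncovered bases lay in 5 stretches, the longest being the one over the Hoxa13 start, and others lay in Hoxa9, chr6:52225524-52226157 (78.9 per kb), and in Hoxa10, chr6:52234378-52234713 (104 per kb). The order did not hold over the whole stretch up to Evx1, where the bases in neither list held 18 per kb, because long uncovered stretches there were poor in CG.

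**Figure D5:**
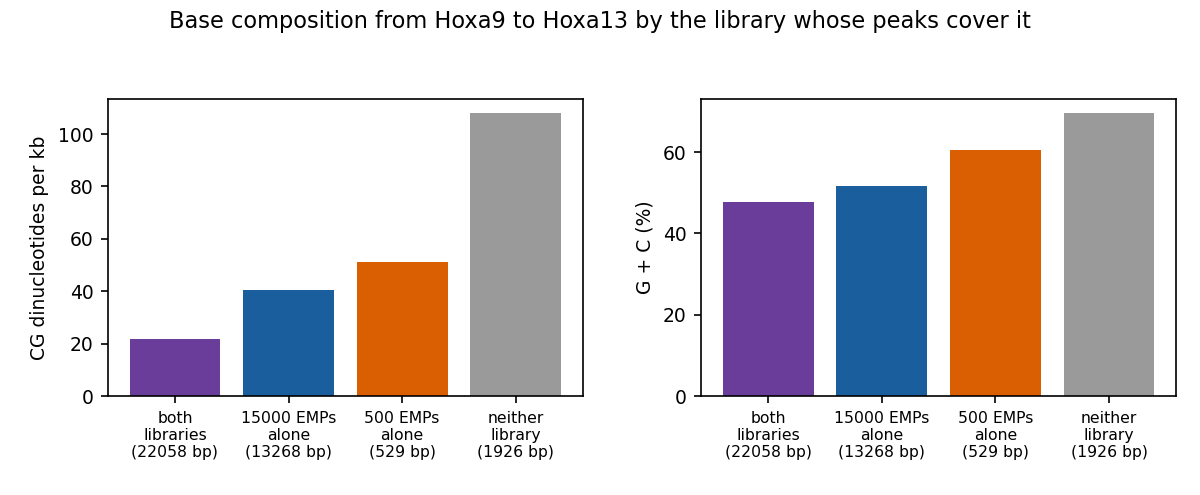
CG dinucleotides per kb (left) and G and C content in % (right) of the bases from Hoxa9 to Hoxa13, split by the list whose peaks cover them, with the number of bases under each bar. Bases in neither list are the richest in CG, at 108 per kb.

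Evx1, chr6:52313498-52318378 on the plus strand, had 73.1% of the gene in peaks with 500 EMPs and 95% with 15000 EMPs. The coding sequence had 58.6% and 100%. The 3 kb before the start had 95.3% and 91.6% covered, so here the smaller library covered slightly more. With 500 EMPs a gap of 375 bp, chr6:52313357-52313731, held the start, 142 bp from the nearest peak. With 15000 EMPs the start lay in a peak of 2191 bp, chr6:52312325-52314515. The antisense gene Evx1os, which overlaps the start of Evx1, had 80.5% and 92.3% of its length in peaks, and peak positions carry no strand, so the marks of the pair cannot be told apart.

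The space between Hoxa13 and Evx1 separated the blocks. The longest stretch without a peak there was 28148 bp with 500 EMPs and 11780 bp with 15000 EMPs. The larger library had 3 peaks wholly inside the longer stretch, chr6:52289265-52289444, chr6:52289846-52293372 and chr6:52305153-52305499. Beyond Evx1 the last peak ended at 52325778 with 500 EMPs and at 52326906 with 15000 EMPs. No peak of either list followed until the next protein-coding gene, Hibadh, an enzyme gene of valine breakdown, at 52546228, a distance of 220449 and 219321 bp. Hibadh itself had 0 peaks in both lists.

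Among the other non-coding genes within 10 kb, Hoxaas3, which runs through the anterior genes, had 75.7% and 95% of its length in peaks, and 9530018H14Rik, between Hoxa11 and Hoxa13, had 63.2% and 100%. Of 10 entries annotated as miscellaneous RNA around Hoxa11os and Hottip, 7 lay wholly in peaks with 500 EMPs and 8 with 15000 EMPs, and in each list 2 had no covered base. Most of these entries overlap Hoxa11os or Hottip, so the counts largely repeat the coverage of those genes.

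The annotated tables listed the 5 genes in 16 of 10516 rows with 500 EMPs and 13 of 15810 with 15000 EMPs, for 15 and 11 peaks. The most frequent category was upstream, with 8 and 7 rows, followed by overlap with the start, with 3 and 3. The tables did not name a member for every peak that lay in one. Of 10 such peaks with 500 EMPs 3 were listed under other genes only, and of 7 with 15000 EMPs 2 were. At Evx1, 3 of 4 and 1 of 2 peaks in the gene were not listed under it, and those that were not stood under Evx1os.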

How the data were processed

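CUT&RUN of 4 libraries was deposited, and the H3K27me3 peaks of 1 library per cell number were analysed. The authors aligned reads to mm10 with Bowtie2 2.2.1, called broad peaks per library with MACS2 2.1.2 against an IgG library, and annotated them with ChIPpeakAnno 3.20.1. Versions are from the submitters' processing notes and the study's methods, which name p 0.01 for 500 EMPs and 0.05 for 15000 EMPs. One listing of the commands has the thresholds the other way round, and the lists were used as labelled. The deposited files hold peak positions, gene symbols and distances in bp, with no signal or count. A lower threshold, other depth or other read length can change how many peaks are listed and how far they join.

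Positions were compared with GENCODE M21 (mm10) and sequences were read from RefSeq GRCm38.p6, with Python 3.11.15, scipy 1.17.1 and matplotlib 3.10.9. The TSS was the start of the APPRIS principal coding transcript, the window 3 kb on each side, the flank 10 kb and the minimum overlap 1 bp. Scripts were tested on simulated data. All 5 members, the Hox and cofactor lists, non-coding genes within 10 kb, the next gene beyond Evx1 and the 5 nearest genes by coverage were described, except 1 item that is not reported here. Members and lists were chosen with earlier results of these data known. No file of an IgG library was analysed, so enrichment over IgG was not measured again. Alternative starts, windows, flanks, joining distances and overlaps were tried.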

Additional observations from a re-analysis of the deposited data

How the results depend on the processing

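The limits are those of 2 peak lists from 1 library each. No library has a replicate and no peak has a height or read count, the 500-EMP data had the lower depth and alignment rate, peaks of a stricter p threshold could not be selected because the lists give positions only, and a difference between the lists may come from any of the settings that differed between them. No paired analysis was possible because the replicate numbers name only 1 library per group and no result comes from a test. Of 73 alternatives for 20 results, 57 moved a value by no more than 1.5 times, or within the Wilson interval for the overlap. With the start itself in a peak in place of a peak within 3 kb, the count of members with 500 EMPs was 1 and not 4. Peaks at the members fell from 25 to 7 with 500 EMPs and from 16 to 3 with 15000 EMPs when peaks within 1 kb were joined, and to 3 and 2 when joined within 3 kb. With a flank of 3 kb there were 15 peaks with 500 EMPs, and with a flank of 0 bp 10 and 7. The overlapping share of 500-EMP peaks was 20% when 50% of both peaks had to be shared. Leaving out the shortest peaks of each list removed 0 peaks at the members, so these alternatives, which are counted among the 57, tested nothing there. Covered shares moved less: the Hoxa9 to Evx1 interval stayed between 45 and 58.8% with 500 EMPs and between 71.3 and 76.1% with 15000 EMPs. At single members 5 of 30 alternatives passed 1.5 times. The Hoxa9 window with 500 EMPs had 23% covered from the gene's 5′ end and 11.8% with 5 kb on each side, the Hoxa10 window 100% from the gene's 5′ end, and the Hoxa13 window 28.4% and 40.4% with 1 kb on each side. The windows of 1 and 2 kb for the genes covered as far as Hoxa9, and the joining within 3 kb for the overlap, were chosen after seeing the data.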
